A study of Mus musculus with 12 samples.

Results

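The genes of the autophagy machinery were described in the NE-4C neural progenitor line with and without Faf2. They are 48 mouse genes that act from the start of autophagosome formation to its fusion with the lysosome, listed by name when earlier results of these data were already known, and all 48 were found among the 57010 genes of the deposited table. FAF2 is an adaptor of the endoplasmic reticulum (ER) that helps extract misfolded proteins for degradation. The study sequenced mRNA from 12 libraries in 4 groups of 3, each group from 3 independent passages. WT NO and KO NO cells were wild-type and Faf2 knockout cells that received no retinoic acid (RA) and were collected at day 0. WT RA and KO RA cells received 1 µM RA, an inducer of neural differentiation, for 24 h and were then kept in growth medium until day 3. No untreated cells of day 3 were among the libraries, so RA and days in culture cannot be told apart. NE-4C cells derive from early embryonic mouse brain and lack p53 in all groups, and the KO is 1 edited line in which CRISPR/Cas9 removed an internal exon, so loss of Faf2 and other differences of that line cannot be told apart.

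Autophagy encloses cytoplasm, proteins or organelles in a double membrane, the autophagosome, and delivers it to lysosomes. The ULK kinase complex starts the process, a phosphatidylinositol 3-kinase complex around BECN1 marks the site, lipid transfer proteins enlarge the membrane, and a pair of ubiquitin-like conjugation systems attaches LC3 and GABARAP proteins to it. Receptors then tether cargo to LC3 and GABARAP, among them dedicated receptors for fragments of the ER (ER-phagy) and for mitochondria (mitophagy). Phosphorylation of the kinases and lipidation of LC3 and GABARAP proteins also control autophagy, and mRNA levels do not measure them.

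All 48 genes passed the filter on low counts and were tested with 16502 genes in all. Levels are estimated counts relative to library totals adjusted by TMM factors (CPM), and library totals ranged from 17370069 to 30738717 counts. In bulk RNA, fewer cells of a type and less RNA per cell cannot be told apart, and the p-values measure the spread between passages of 1 WT and 1 KO line. Faf2 itself stood at 50.0, 38.8 and 36.0 CPM in WT NO, 35.1, 37.9 and 49.1 in WT RA, 21.0, 21.7 and 25.4 in KO NO, and 36.1, 34.3 and 18.7 in KO RA. The log2 fold change in KO NO against WT NO was -0.87 (adjusted p = 0.179), and -0.86 (adjusted p = 0.0111) without KO RA replicate 3. The library labelled KO RA replicate 1 lay within the WT range of 35.1 to 50.0 CPM and that labelled replicate 2 just below it. A gene-level count includes the exons that remain, so it is a weak check of the genotype. The paper checked the deletion by PCR and Sanger sequencing, and reports loss of FAF2 protein by immunofluorescence and western blot. The KO RA library of replicate 3 stood apart, with a TMM factor of 0.394 against 0.872 to 1.28 elsewhere and 23.5% of its counts on mitochondrial genes against 9.1% to 17.7%. It entered the fit of all comparisons through the shared estimate of the spread, and calls that changed without it are given both ways. The 5 neural progenitor markers Nes, Sox2, Pax6, Otx2 and Cdh2 were all detected, with summed levels of 169 to 324 CPM over the 12 libraries, and Pax6 was called lower in KO cells without RA (1.3 against 7.4 CPM on average, adjusted p = 0.0264) and with RA (2.98 against 13.8 CPM, adjusted p = 0.0396). Of these 5 markers none was called higher in KO. The KO libraries all lay above WT in 1 and below in 3 without RA (15.5% and 15.2% of all genes). With RA they lay above in 1 and below in 2 (9.97% and 10.9%). Above without RA was Sox2, at 57.7 to 63.5 against 23.7 to 44.3 CPM. Above with RA was Nes, at 56.2 to 75.0 against 34.1 to 40.9 CPM. Summed markers of other lineages differed between groups. The 6 mesenchymal markers stood at 4.69 to 81.3 CPM in WT NO, 54.7 to 227 in WT RA, 8.8 to 16.7 in KO NO and 160.4 to 1006 in KO RA. None of the 6 was at 0 in a whole group, and the sums of the WT groups overlapped. Most of these sums was Tagln and Acta2 on average, with means of 19.9 and 13.6 CPM in WT NO and 55.1 and 40.9 in WT RA. Tagln, Acta2 and Pdgfrb overlapped between the WT groups. Col1a1, Col1a2 and Col3a1 were higher in all WT RA libraries, Col3a1 at 18.9 to 27.1 against 0.488 to 0.739 CPM. Of the 6, edgeR called 2 higher and 0 lower in WT RA against WT NO (0.321% and 0.0848% of all genes). The 8 neuronal markers stood at 80.8 to 113, 142 to 164, 72.4 to 90.6 and 146 to 208 CPM in WT NO, WT RA, KO NO and KO RA. None of them was at 0 in a whole group. Stmn2 was the largest part of these sums on average, with means of 60.1 CPM in WT NO and 93.6 in WT RA. With RA, 5 of the 8 had a log2 fold change above 0 and 3 below in WT, and 6 and 2 in KO. The 5 endothelial markers stood at 0.591 to 2.81, 1.48 to 2.33, 1.07 to 2.01 and 6.15 to 13.3 CPM, highest in KO RA, with Cdh5 at 0 in all WT NO and KO NO libraries and Emcn in all KO NO libraries. The 4 pluripotency markers stood at 1207 to 2323, 2186 to 2867, 1421 to 1695 and 973 to 1243 CPM, with Zfp42 at 0 in all WT libraries. Every KO RA sum lay below every WT RA sum. Most of each sum was Pou5f1, at means of 2415 CPM in WT RA and 985 in KO RA. Nanog, at 65.7 to 91.2 and 71.8 to 173 CPM, and Esrrb overlapped between these groups. The 4 astroglial markers stood at 8.78 to 18.6 CPM over all libraries, with Aqp4 at 0 in all WT libraries. Most of this was Slc1a3, at 7.47 to 16.3 CPM, while Gfap was at most 0.191 CPM and Aldh1l1 at most 2.2 CPM. The part of these cells in the values below was not tested.

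In untreated WT cells the machinery was expressed throughout. The median of the 48 group means was 17.9 CPM, against 7.5 CPM over all genes tested, and 36 of the 48 genes were above 10 CPM. Because the deposited counts behave as corrected for gene length, these CPM levels can be compared between genes. Only 4 genes were above 100 CPM. They were Sqstm1, the cargo receptor p62, at 161 ± 51.6 (SD, n = 3), the ER-phagy receptor Rtn3 at 138 ± 40.4, Gabarap at 129 ± 22.6 and the mitophagy receptor Bnip3l at 105 ± 52.3 CPM. Each differed from the next in this order by less than the larger SD of the pair. The lowest levels were those of Stx17, the SNARE that brings the autophagosome to the lysosome, at 2.86 CPM, the PI3P-binding Wipi1 at 2.79, the ER-phagy receptor Retreg1 at 1.92 and Atg10, the E2-like enzyme of ATG12, at 0.642 ± 0.149 CPM. The summed level of the 48 genes ranged from 1355 to 1692 CPM in WT NO, 1857 to 2340 in WT RA, 1628 to 1805 in KO NO and 1638 to 2707 in KO RA. The KO NO sums overlapped those of WT NO, and the WT RA sums lay above those of WT NO. Much of the latter was Bnip3, a mitophagy receptor with mean levels of 436 CPM in WT RA and 84.1 in WT NO, and the sums of the other 47 genes overlapped, at 1519 to 1669 and 1255 to 1633 CPM. Without TMM scaling the 48 genes took 0.1719% to 0.2039% of the counts in WT RA and 0.1455% to 0.2038% in WT NO, which also overlapped. KO RA replicate 3 had the highest sum by TMM scaling (2707 CPM) and the lowest share of counts (0.1064%).

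**Figure D1:**
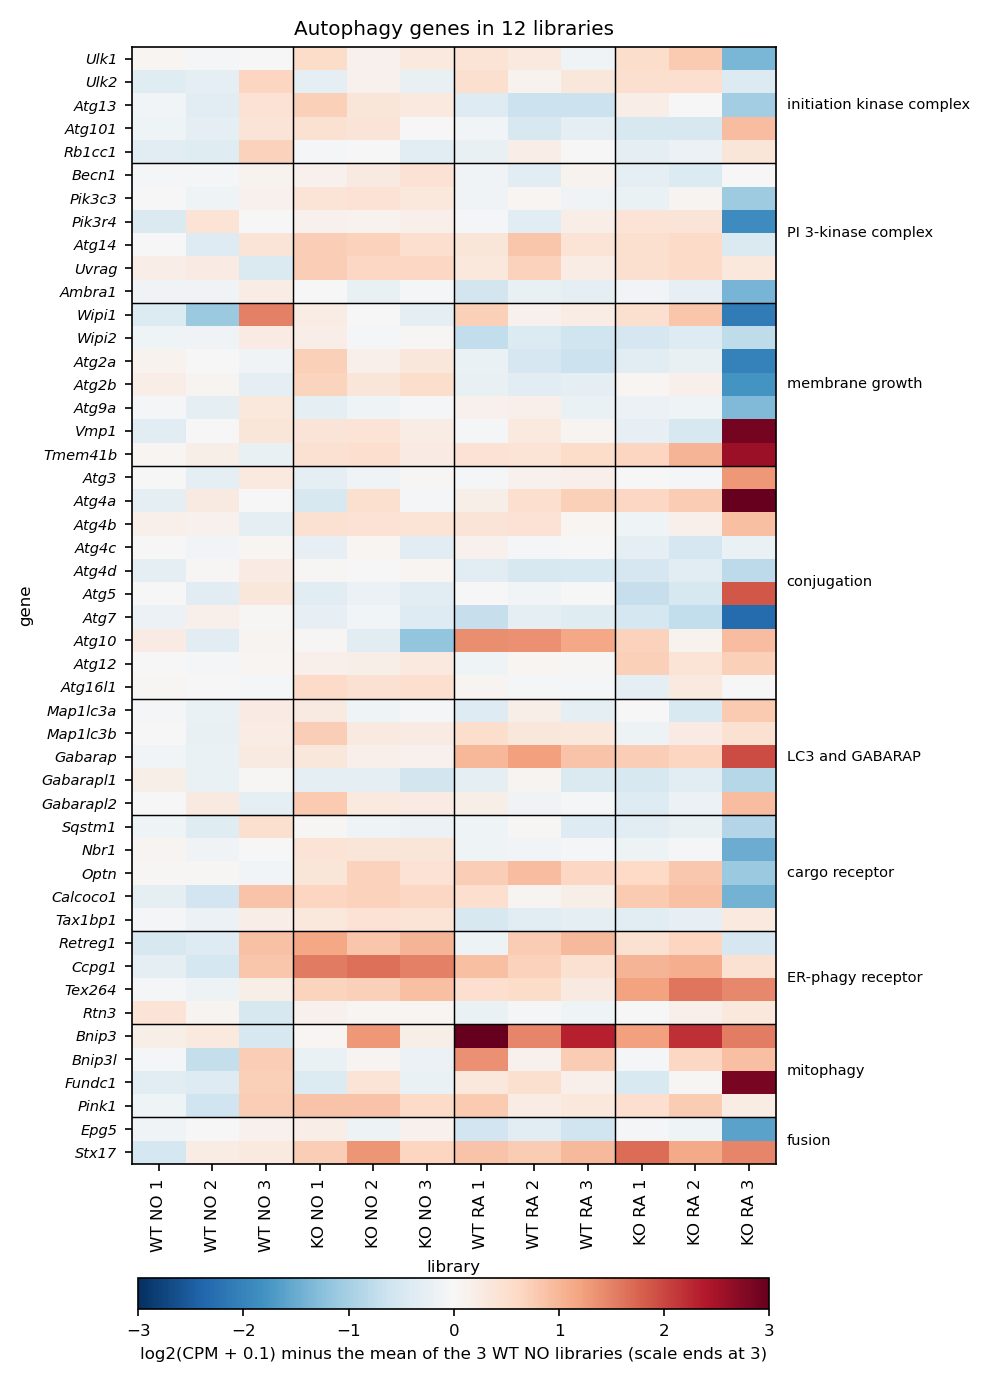
Heat map of the 48 genes (rows, by step of autophagy) in the 12 libraries (columns), as log2(CPM + 0.1) minus the mean of WT NO. Warm colours stand for levels above WT NO and cool colours for levels below, and KO RA replicate 3 shows the strongest colours in both directions, such as Vmp1 at 427 CPM against 49.3 and 42.3 in the other KO RA libraries.

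The comparison of untreated KO with untreated WT cells asked whether the machinery stood at other levels in the KO line without RA. None of the 48 genes passed an adjusted p of 0.05 in either direction in edgeR, where 0.788% of all genes were called higher and 0.351% lower. With an unadjusted p under 0.05, 5 were higher and 0 lower (5.81% and 6.37% of all genes). The 34 of 48 genes with a fold change above 0 compare with 48.3% of all genes, and the median log2 fold change was 0.28 against -0.02. In 18 genes the 3 KO NO libraries all lay above the 3 WT NO libraries (15.5% of all genes) and in 1, Gabarapl1, all lay below (15.2%). The median stayed between 0.22 and 0.33 when any library was left out. Other tools called 2 genes higher (Ccpg1 and Tex264, DESeq2 on all libraries), 5 (these and Atg16l1, Nbr1 and Optn, DESeq2 on these groups), 1 (edgeR on these groups) and 17 (limma-voom with quality weights), and each called 0 lower. The shares of all genes called by these other tools are not given here, so their counts cannot be set against all genes.

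The genes with the smallest p among them were receptors for ER-phagy. Promoter sequences are printed for Ccpg1 and Tex264, the pair with the smallest p in KO NO against WT NO, and for Bnip3, the gene with the smallest p in WT RA against WT NO, so that the letters near their start sites can be read. Each run is the 250 bases before an annotated start in RefSeq (table of build GRCm38.p6), and its position is that of its exact match in GRCm39. Tex264 has a further annotated start. Its run (chr9:106563016-106563265, minus strand) overlaps the printed one, held no CACGTG and is not printed. Capitals mark CACGTG, the E-box letters within the CLEAR element that TFEB and TFE3 bind.
Ccpg1 (chr9:72892536-72892785, plus strand): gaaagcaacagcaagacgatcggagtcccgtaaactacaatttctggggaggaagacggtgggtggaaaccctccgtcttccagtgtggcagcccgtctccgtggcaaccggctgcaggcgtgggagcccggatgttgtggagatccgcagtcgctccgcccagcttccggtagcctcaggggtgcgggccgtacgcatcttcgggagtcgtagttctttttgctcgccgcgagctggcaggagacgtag
Tex264 (chr9:106563152-106563401, minus strand): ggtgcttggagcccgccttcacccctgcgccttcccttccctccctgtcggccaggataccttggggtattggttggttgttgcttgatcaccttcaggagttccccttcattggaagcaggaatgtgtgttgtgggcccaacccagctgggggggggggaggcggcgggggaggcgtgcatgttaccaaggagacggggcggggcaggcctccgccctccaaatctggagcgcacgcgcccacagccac
Bnip3 (chr7:138511236-138511485, minus strand): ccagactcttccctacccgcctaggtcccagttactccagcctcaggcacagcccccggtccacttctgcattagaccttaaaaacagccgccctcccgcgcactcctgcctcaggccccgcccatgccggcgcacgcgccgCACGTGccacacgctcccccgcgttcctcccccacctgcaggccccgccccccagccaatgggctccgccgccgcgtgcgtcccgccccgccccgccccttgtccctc
In these 3 runs CACGTG, which reads the same on both strands, was found in Bnip3 alone, with its first base at -108 from the start. RefSeq windows of 300 bases, with 50 bases after the start, matched 40 of the 48 genes. CACGTG was in the windows of 6 of them, Atg14, Atg3, Atg5, Atg7, Bnip3 and Retreg1 (15.0%, against 8.09% of 27025 genes with windows). The longer TCACGTG, which contains CACGTG, was in 4 of the 6 on either strand, Atg14, Atg3, Atg7 and Retreg1 (10.0% against 4.29%). TGATGNAA, the letters of the element bound by ATF4 with C/EBP factors, was in 0 of 40 on either strand, against 4.51% of genes. The windows of the 40 genes were richer in G and C than all windows, with medians of 60.2% and 52.7%.

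Ccpg1 (ENSMUSG00000034563, GRCm39 chr9:72892674-72923626, plus strand) encodes an ER membrane receptor that recruits the autophagy machinery to the ER. It stood at 4.19, 3.55 and 9.25 CPM in the 3 WT NO libraries and at 15.5, 16.4 and 15.0 CPM in the 3 KO NO libraries. The groups did not overlap, and WT NO replicate 3 was the WT library nearest to the KO. Its log2 fold change was 1.46 (SE 0.35, adjusted p = 0.0782), which missed the threshold, and without WT NO replicate 3 it was 2.02 (adjusted p = 0.00765) and without KO RA replicate 3 it was 1.47 (adjusted p = 0.018). Ccpg1 passed in 5 of 20 alternative settings. The gene overlaps Gm44503 on its own strand and Pierce2 and Pigb on the opposite one, and whether the counting used strand is not given in the sources used here, so reads shared with them are uncertain. With RA it stood at 9.71, 8.39 and 7.12 CPM in WT and at 10.6, 11.2 and 7.14 CPM in KO, and these groups overlapped.

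Tex264 (ENSMUSG00000040813, GRCm39 chr9:106535944-106563246, minus strand) encodes a single-pass ER membrane protein that is a major receptor of ER-phagy during starvation. Its levels were 18.9, 17.4 and 21.9 CPM in WT NO and 30.9, 31.8 and 35.9 CPM in KO NO. The lowest KO NO library exceeded the highest WT NO library, at group means of 32.9 ± 2.68 and 19.4 ± 2.29 CPM (SD, n = 3). A log2 fold change of 0.76 (SE 0.19, adjusted p = 0.0952) did not pass, and without KO RA replicate 3 it was 0.77 with an adjusted p of 0.0121. Tex264 overlapped no protein-coding gene. The other receptors of this step showed smaller separation. Retreg1, also known as Fam134b, stood at 3.98, 3.14 and 3.63 CPM in KO NO and at 1.2, 1.29 and 3.27 in WT NO, where replicate 3 reached into the KO range. Rtn3, by far the most abundant of the ER-phagy receptors, stood at 147, 139 and 139 CPM in KO NO, within the 96.7 to 177 of WT NO.

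**Figure D2:**
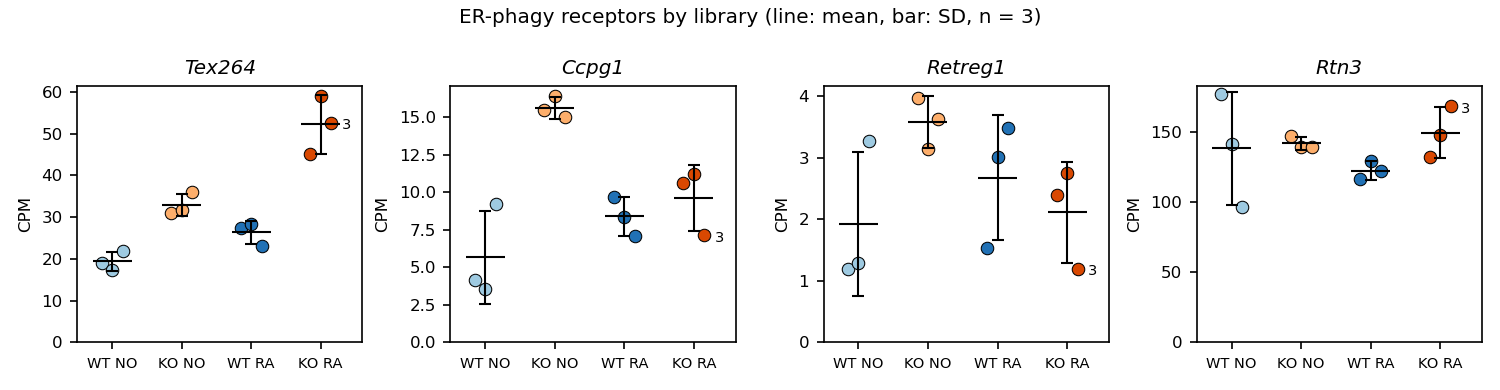
Levels of the 4 ER-phagy receptors in each library, in CPM on a linear axis, by group, with points for libraries, lines for group means and bars for the SD. Tex264 is lowest in WT NO, at 17.4 to 21.9 CPM, and highest in KO RA, at 45.0 to 59.1 CPM, while Ccpg1 is highest in KO NO, at 15.0 to 16.4 CPM.

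Stx17 had the next smallest p. It stood at 4.72, 7.05 and 4.36 CPM in KO NO and at 1.9, 3.25 and 3.42 in WT NO. The groups did not overlap, and the log2 fold change was 0.91 (SE 0.30, adjusted p = 0.211). Atg16l1, which directs the ATG12-ATG5 conjugate to the membrane, had a log2 fold change of 0.52 (SE 0.19, adjusted p = 0.269, and 0.0459 without KO RA replicate 3). Uvrag, a partner of BECN1, had one of 0.64 (SE 0.23, adjusted p = 0.28).

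The 18 genes whose KO NO libraries all lay above WT NO were spread over the steps. They were 4 of the 6 genes of the phosphatidylinositol 3-kinase complex (Becn1, Pik3c3, Atg14 and Uvrag), 3 of 5 cargo receptors (Nbr1, Optn and Tax1bp1), 2 of 4 ER-phagy receptors, 3 of 7 genes of membrane growth (Atg2a, Atg2b and Tmem41b), 3 of 10 conjugation genes (Atg12, Atg16l1 and Atg4b), 1 of 5 initiation genes (Ulk1), 1 of 5 LC3 and GABARAP genes (Map1lc3b), 1 of 2 fusion genes and 0 of 4 mitophagy genes. The median log2 fold change was 0.83 for ER-phagy, 0.48 for fusion, 0.38 for cargo receptors, 0.34 for the 3-kinase complex, 0.31 for membrane growth, 0.27 for initiation, 0.23 for mitophagy, 0.20 for LC3 and GABARAP and -0.06 for conjugation. Nbr1, a ubiquitin-binding cargo receptor, stood at 92.9, 90.5 and 91.0 CPM in KO NO against 74.5, 65.4 and 71.2 in WT NO. Its log2 fold change was 0.38 (adjusted p = 0.747), and without KO RA replicate 3, whose Nbr1 level was 24.8 CPM, it was 0.39 with an adjusted p of 0.0281. Optn, the receptor optineurin, went from 0.50 (adjusted p = 0.706) to 0.51 (adjusted p = 0.0305), and the lipid transfer protein gene Atg2b from 0.52 (adjusted p = 0.71) to 0.53 (adjusted p = 0.0496). Without that library 18 genes above WT NO and 1 gene below it had an unadjusted p under 0.05 (12.3% and 12.6% of all genes), and 6 of the 48 were called higher, Tex264, Ccpg1, Nbr1, Optn, Atg16l1 and Atg2b, against 4.43% of all genes, and 0 lower, against 4.35%. Without WT NO replicate 3, 1 gene was called higher, Ccpg1, and the share of all genes called in that fit is not given here.

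With RA in both genotypes, Tex264 was the 1 gene of the 48 called, higher in KO RA than in WT RA, where 0.885% of all genes were called higher and 0.358% lower. It stood at 45.0, 59.1 and 52.6 CPM in KO RA and at 27.4, 28.4 and 23.2 in WT RA. The lowest KO RA library was well above the highest WT RA library. KO RA exceeded WT RA by a log2 fold change of 0.99 (SE 0.19, edgeR adjusted p = 0.0375), which ranged from 0.90 to 1.13 when any library was left out. The adjusted p was close to the threshold. It was passed in 8 of 20 alternatives, with values from 4.8e-06 to 0.225. Leaving out any of WT NO replicates 1 and 2, WT RA replicates 1, 2 and 3, KO NO replicates 1, 2 and 3 or KO RA replicate 2 gave adjusted p-values of 0.0569 to 0.185, while without KO RA replicate 3 it was 0.00669.

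At an unadjusted p under 0.05, 4 genes were higher and 0 lower in KO RA (10.9% and 6.67% of all genes). Besides Tex264 they were Atg12, Tmem41b and Atg4a. Atg12, the ubiquitin-like protein joined to ATG5, stood at 13.4, 10.8 and 13.3 CPM in KO RA and at 7.36, 8.49 and 8.22 in WT RA, groups that did not overlap. Its log2 fold change was 0.64 (SE 0.19, adjusted p = 0.125), and 0.59 (adjusted p = 0.038) without KO RA replicate 3. Tmem41b, an ER scramblase needed for autophagosome formation, had a log2 fold change of 1.20 (SE 0.41, adjusted p = 0.182), which was 0.38 without that library. Atg4a, a protease that primes GABARAP proteins, had one of 2.23 (SE 0.78, adjusted p = 0.192) and 0.22 without it. Of the 48 genes 27 were above 0, against 55.6% of all genes, and the median was 0.03 against 0.09. Of the other tools limma-voom alone called a gene of the 48 lower, Atg5, and its share of all genes is not given here. The groups were apart in 5 genes with KO higher, Tex264, Atg12, Stx17, Tmem41b and Rtn3 (9.97% of all genes), and in 2 with KO lower, Atg4c and Atg10 (10.9%). Without KO RA replicate 3 the groups, then of 2 and 3 libraries, were apart in 12 genes with KO higher and 8 with KO lower (25.7% and 22.2% of all genes), 23 genes were above 0 and the median was -0.01 against 0.01. An unadjusted p under 0.05 was then reached by 6 genes above WT RA and 2 below (13.0% and 13.4%), and edgeR called 2 genes higher, Tex264 and Atg12, and 0 lower (4.42% and 5.44% of all genes).

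The KO libraries lay above the WT libraries of the same treatment both times in 4 genes, Tex264, Stx17, Atg12 and Tmem41b, against 3.35% of all genes, and below both times in 0, against 3.68%. The 3 KO RA libraries of Stx17 stood at 9.03, 6.17 and 7.83 CPM and those of WT RA at 5.05, 4.8 and 5.54. KO RA replicate 3 was close to the other KO RA libraries for Tex264, Stx17 and Atg12, at 1.01, 1.03 and 1.1 times their mean, and was 3.28 times their mean for Tmem41b.

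**Figure D3:**
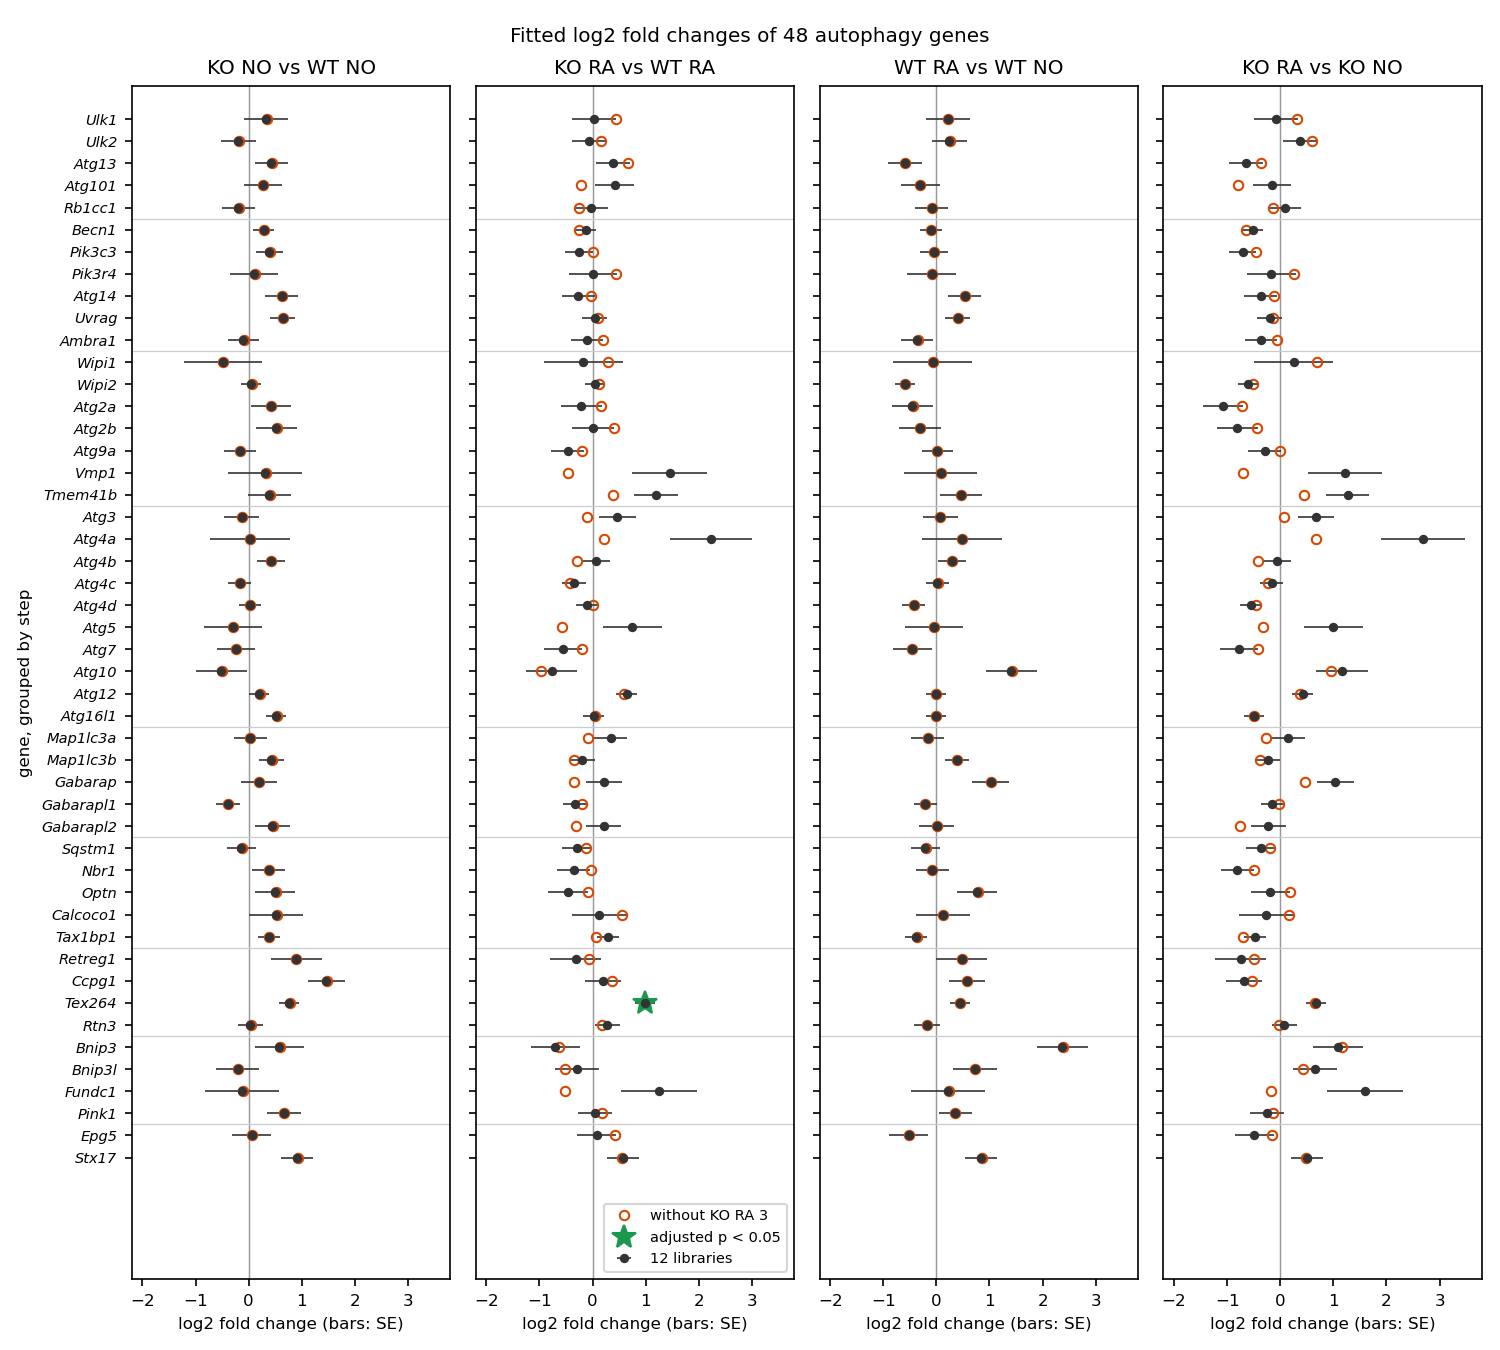
Log2 fold changes with SE (bars) of the 48 genes in 4 comparisons, with open circles for the fit without KO RA replicate 3 and a star for the 1 gene called. Tex264 in KO RA against WT RA carries the star at 0.99, and the open circles depart furthest from the filled ones where KO RA is compared, as for Atg4a, at 2.69 and 0.67 in KO RA against KO NO.

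RA in WT cells was compared to see how the machinery stood in differentiating cells. None of the 48 genes was called by edgeR in either direction (0.321% of all genes were called higher and 0.0848% lower), and 5 genes above and 1 gene below WT NO had an unadjusted p under 0.05 (6.76% and 5.79% of all genes). The fold change was above 0 in 25 of 48, against 49.3% of all genes, and the median was 0.01 against -0.01. In 8 genes all WT RA libraries lay above all WT NO libraries (15.1% of all genes), and in 8 they lay below (14.0%). DESeq2 on all libraries called 1 higher, Bnip3, and 1 lower, Wipi2, edgeR on these groups 3 and 0, DESeq2 on these groups 3 (Bnip3, Gabarap and Optn) and 1 (Wipi2), and limma-voom 13 and 1. For these other fits too the shares of all genes called are not given here.

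Bnip3, a receptor on the outer mitochondrial membrane for mitophagy, had the largest difference. Its levels were 671, 226 and 411 CPM in WT RA and 93.2, 100.4 and 58.7 CPM in WT NO. The groups did not overlap, and the WT RA libraries themselves ranged widely. It had a log2 fold change of 2.37 (SE 0.48, adjusted p = 0.0705), and 2.38 (adjusted p = 0.0134) without KO RA replicate 3. In KO cells Bnip3 (ENSMUSG00000078566, GRCm39 chr7:138490690-138511253, minus strand) stood at 84.7, 201 and 92.1 CPM without RA and at 193, 374 and 236 CPM with RA, where KO NO replicate 2 overlapped the RA group. Its paralogue Bnip3l ranged from 58.8 to 162 CPM in WT NO and from 106 to 252 in WT RA, and the groups overlapped.

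Gabarap, which is lipidated onto the autophagosome membrane and binds receptors, stood at 255, 298 and 230 CPM in WT RA and at 120.3, 111 and 154 in WT NO. All WT RA libraries lay above WT NO, at means of 261 ± 34.6 and 129 ± 22.6 CPM (SD, n = 3). The log2 fold change was 1.02 (SE 0.34, adjusted p = 0.239), and 1.03 (adjusted p = 0.00409) without KO RA replicate 3. Wipi2, a PI3P effector that recruits ATG16L1, was at 23.1, 29.0 and 25.5 CPM in WT RA and at 35.5, 35.7 and 45.6 in WT NO. Here all WT RA libraries lay below, with a log2 fold change of -0.59 (SE 0.19, adjusted p = 0.236, and 0.0253 without that library). Optn showed 68.5, 78.4 and 63.2 CPM against 42.3, 42.3 and 38.5, without overlap. Its log2 fold change of 0.77 (adjusted p = 0.442) became 0.78 with an adjusted p of 0.00577 without that library, in which Optn stood at 18.9 CPM. In the fit without KO RA replicate 3, 9 genes above WT NO and 8 below had an unadjusted p under 0.05 (13.4% and 13.6% of all genes), and edgeR called 3 genes higher with RA in WT, Bnip3, Gabarap and Optn, and 1 lower, Wipi2 (5.65% and 5.13% of all genes).

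Lower in abundance was Atg10, which overlaps Rps23 on the opposite strand. It stood at 1.83, 1.79 and 1.53 CPM in WT RA and at 0.775, 0.481 and 0.671 in WT NO. These groups did not overlap, and the log2 fold change was 1.41 (SE 0.48, adjusted p = 0.252). It was 0.84 for Stx17 (SE 0.30, adjusted p = 0.266) and 0.44 for Tex264 (SE 0.19, adjusted p = 0.371). The 8 genes apart and higher with RA were Bnip3, Gabarap, Map1lc3b, Optn, Atg10, Stx17, Tmem41b and Tex264. The 8 apart and lower were Wipi2, Atg13, Ambra1, Atg2a, Atg4d, Atg7, Tax1bp1 and Epg5, which take part in initiation, membrane growth, conjugation, cargo binding and fusion.

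**Figure D4:**
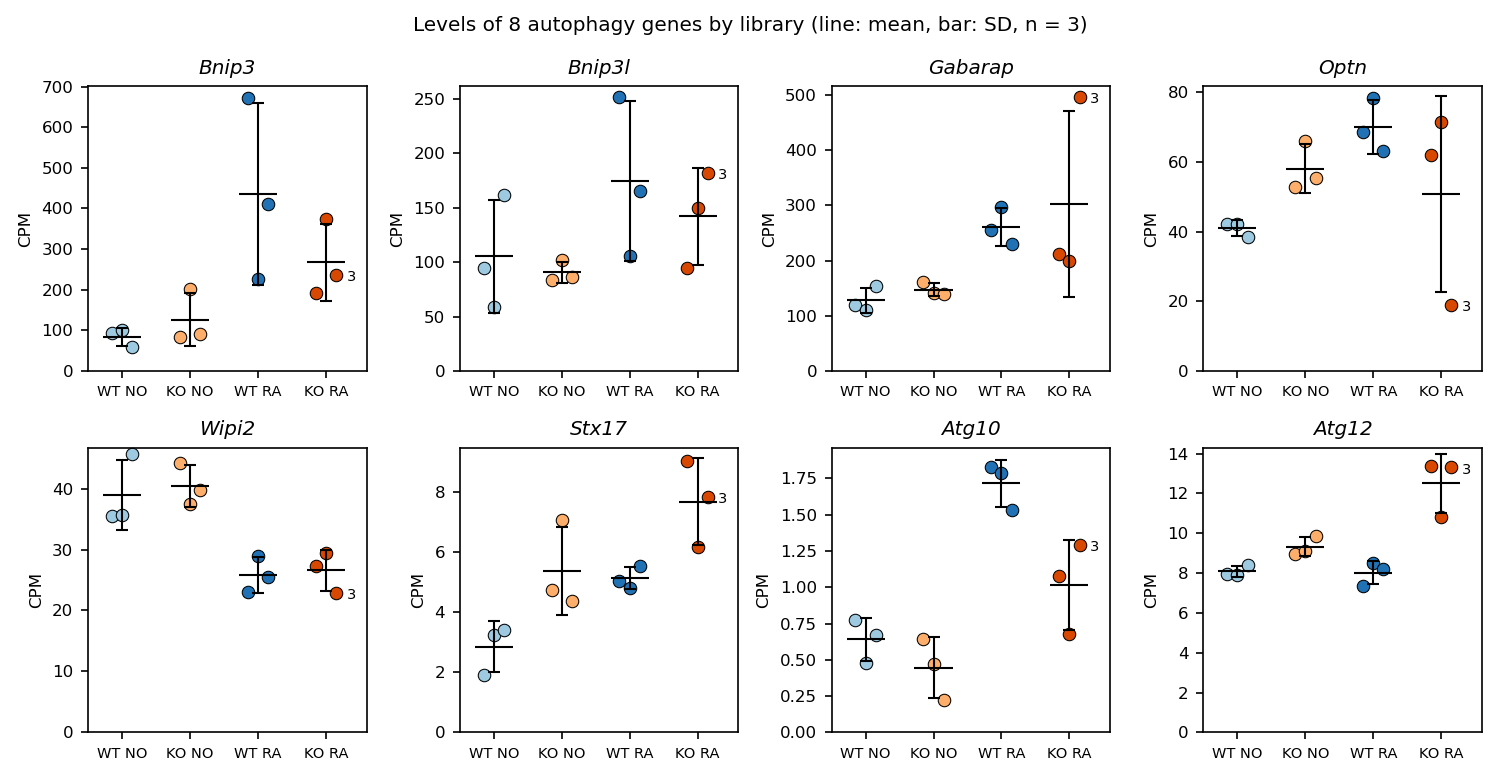
Levels of 8 genes in each library by group, in CPM on linear axes, with points for libraries, lines for group means and bars for the SD. Bnip3 and Gabarap are higher in WT RA (226 to 671 and 230 to 298 CPM) than in WT NO (58.7 to 100.4 and 111 to 154 CPM), while Wipi2 is lower, at 23.1 to 29.0 against 35.5 to 45.6 CPM.

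The same comparison in KO cells, KO RA against KO NO, includes the library that stood apart. In edgeR 0 of the 48 genes were called higher (3.89% of all genes) and 0 lower (1.59%), and at an unadjusted p under 0.05, 8 were higher and 8 lower (15.8% and 9.42%). The fold change was above 0 in 18 of 48, against 55.0% of all genes, and the median was -0.18 against 0.11. In 6 genes all KO RA libraries lay above KO NO (13.2%), namely Tex264, Tmem41b, Atg12, Atg10, Atg4a and Gabarap. In 15 genes they all lay below (17.0%), among them Becn1, Pik3c3 and Uvrag of the 3-kinase complex, Wipi2, Atg2a and Atg2b of membrane growth, Atg4d, Atg7 and Atg16l1 of conjugation, the cargo receptors Nbr1, Sqstm1 and Tax1bp1, and the ER-phagy receptors Ccpg1 and Retreg1. DESeq2 on all libraries called 3 genes higher and 4 lower, edgeR with DESeq2's size factors 1 and 0, limma-voom 4 and 13, and edgeR and DESeq2 on these groups 0 and 0. Shares of all genes called are not given here for these other fits. Without KO RA replicate 3 the fold change was above 0 in 16 of 48, the median was -0.15 against -0.02, and 5 genes above KO NO and 14 below had an unadjusted p under 0.05 (15.4% and 15.5% of all genes). KO RA then lay above KO NO in 10 genes and below in 20 (27.4% and 28.3%).

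Tex264 again had the smallest p. Its KO RA libraries, at 45.0, 59.1 and 52.6 CPM, were above those of KO NO, at 30.9, 31.8 and 35.9. Their log2 fold change was 0.67 (SE 0.19, adjusted p = 0.0654). It was 0.65 (adjusted p = 0.0205) without KO RA replicate 3 and 0.81 (adjusted p = 0.0488) without KO RA replicate 1. Wipi2 was at 27.3, 29.5 and 22.9 CPM in KO RA and at 44.2, 37.4 and 39.7 in KO NO, again without overlap. It had a log2 fold change of -0.60 (SE 0.19, adjusted p = 0.0958), and of -0.52 (adjusted p = 0.0461) without KO RA replicate 3.

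Atg4a shows how far 1 library could decide a value. It stood at 4.69, 5.18 and 50.4 CPM in KO RA and at 2.11, 4.24 and 2.88 in KO NO. The groups did not overlap, but replicate 3 was 10.0 times the mean of the other KO RA libraries. The log2 fold change was 2.69 (SE 0.79, adjusted p = 0.0729), 0.67 (adjusted p = 0.172) without replicate 3, and 3.26 (adjusted p = 0.0351) and 3.25 (adjusted p = 0.0343) without replicates 1 and 2. Atg4a overlaps Psmd10 on the opposite strand. Tmem41b had a log2 fold change of 1.27 (SE 0.41, adjusted p = 0.0963), 0.44 without KO RA replicate 3 and an adjusted p of 0.0382 without KO RA replicate 1. Gabarap had one of 1.04 (SE 0.34, adjusted p = 0.101), and 0.47 (adjusted p = 0.0721) without replicate 3. For Atg10 it was 1.16 (SE 0.49, adjusted p = 0.172).

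Among the lower genes, Atg2a, a lipid transfer protein, had a log2 fold change of -1.08 (SE 0.38, adjusted p = 0.123), and -0.72 (adjusted p = 0.0372) without KO RA replicate 3. The lipid kinase gene Pik3c3 had one of -0.71 (SE 0.26, adjusted p = 0.136). Atg16l1 had -0.50 (SE 0.19, adjusted p = 0.141) and the protease gene Atg4d -0.55 (SE 0.21, adjusted p = 0.141). Nbr1, at 62.8, 68.5 and 24.8 CPM in KO RA, had -0.81 (SE 0.31, adjusted p = 0.144), and -0.49 (adjusted p = 0.0111) without replicate 3. Becn1, the scaffold of the 3-kinase complex, stood at 51.3, 47.1 and 62.0 CPM against 68.7, 75.8 and 84.6 in KO NO. Its log2 fold change was -0.52 (SE 0.20, adjusted p = 0.145), and -0.65 (adjusted p = 0.0139) without replicate 3. Without that library 1 gene was called higher, Tex264, and 8 lower, against 8.48% and 7.54% of all genes. Besides Nbr1, Becn1, Atg2a and Wipi2 these were Tax1bp1 (-0.70, adjusted p = 0.00671, and -0.47 with adjusted p = 0.189 in all libraries), Vmp1, Atg101 and Gabarapl2. The last 3 encode an ER scramblase that acts in membrane growth, a subunit of the ULK complex and a GABARAP paralogue. Vmp1 went from 1.22 (adjusted p = 0.296) to -0.71 (adjusted p = 0.0324), Atg101 from -0.15 to -0.79 (adjusted p = 0.0329) and Gabarapl2 from -0.23 to -0.75 (adjusted p = 0.0347). Vmp1 shares its strand with Mir21a.

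Across both genotypes, all RA libraries lay above the NO libraries of the same genotype in 4 genes, Tex264, Gabarap, Atg10 and Tmem41b (4.53% of all genes), and below in 6, Wipi2, Atg13, Atg2a, Atg4d, Atg7 and Tax1bp1 (5.96%). By its library levels Tex264 was thus higher with RA in each genotype and higher in KO in each treatment, while edgeR called KO RA against WT RA alone. Its group means were 19.4, 26.3, 32.9 and 52.2 CPM in WT NO, WT RA, KO NO and KO RA. The neighbours WT RA and KO NO in this order did not overlap, at 23.2 to 28.4 and 30.9 to 35.9 CPM. The difference of its RA responses between genotypes was 0.23 on the log2 scale (SE 0.27, adjusted p = 0.806), a value chosen after the others were seen.

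The interaction asked whether the RA response differed between KO and WT. No gene of the 48 was called, nor was any other gene (0.00% higher and 0.00% lower), and at an unadjusted p under 0.05, 0 were higher and 1 lower (5.53% and 3.09%). That gene was Ccpg1, with a difference of -1.26 (SE 0.48, edgeR adjusted p = 0.507). Its mean went from 5.66 to 8.41 CPM with RA in WT and from 15.7 to 9.65 in KO. Among the other tools limma-voom gave -1.53 with an adjusted p of 0.00939 and was the 1 alternative of 18 in which it passed. Atg4a, whose KO RA level rests on replicate 3, and Atg14 had the next smallest p, 0.063 and 0.0676 before adjustment. Atg14, the subunit that targets the 3-kinase complex to autophagosome sites, stood at 4.79, 3.59 and 6.26 CPM in WT NO, 6.2, 8.58 and 6.31 in WT RA, 8.03, 7.7 and 6.78 in KO NO, and 6.68, 7.19 and 3.47 in KO RA. Over the 48 genes 31 had a difference below 0, while 56.1% of all genes had one above 0, and the medians were -0.14 and 0.12. All 6 genes of the 3-kinase complex (median -0.50) and all 5 cargo receptors (median -0.39) were below 0. Without KO RA replicate 3 this held for 4 of 6 (median -0.48) and 3 of 5 (median -0.32). Over the 48 genes the median was then -0.27 against -0.00 for all genes, 0 of the 48 were called (0.802% of all genes higher and 0.537% lower), and 0 above 0 and 10 below had an unadjusted p under 0.05 (9.30% and 9.62% of all genes).

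KO RA replicate 3 differed gene by gene and in both directions. Against the mean of KO RA replicates 1 and 2 it was more than 2-fold higher in 9 of the 48 genes and more than 2-fold lower in 15, where 25.5% and 32.3% of all genes were. In the other 11 libraries, each set against the mean of the other libraries of its group, 0 to 8 genes were more than 2-fold higher and 0 to 5 lower, with the 8 in WT NO replicate 3. The 9 higher genes were Atg4a (10.0-fold), Vmp1 (9.31-fold), the mitophagy receptor Fundc1 (8.15-fold), the conjugation gene Atg5 (5.48-fold), Tmem41b (3.28-fold), Atg101 (2.64-fold), the E2-like Atg3 (2.48-fold), Gabarap (2.41-fold) and Gabarapl2 (2.29-fold). The lowest ratios were 0.146 for Wipi1, 0.205 for the kinase scaffold Pik3r4, 0.21 for the cargo receptor Calcoco1, 0.246 for the kinase Ulk1, 0.266 for Atg2b and 0.285 for Optn. The 48 genes together took 0.1064% of the counts of this library and 0.1455% to 0.2394% of the others. What set this library apart was not tested.

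**Figure D5:**
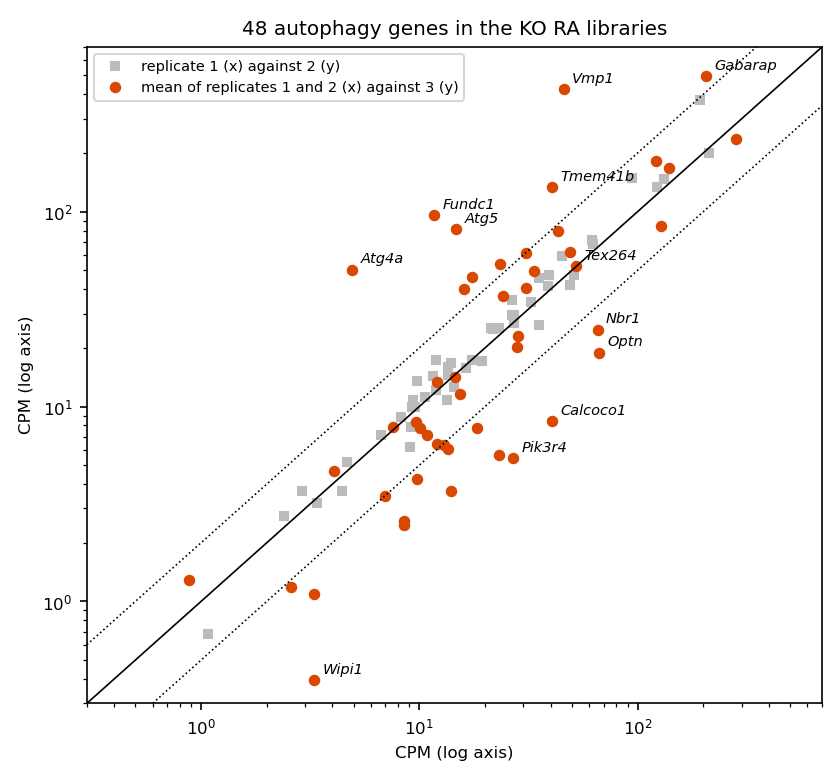
Scatter of the 48 genes on log axes of CPM, with KO RA replicate 1 against replicate 2 in grey and the mean of both against replicate 3 in orange, and dotted lines at 2-fold. The grey points follow the diagonal, while 9 orange points lie above and 15 below the 2-fold lines, with Atg4a at 10.0-fold and Wipi1 at 0.146-fold.

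Genes around the machinery were read from 3 lists, of regulators (29 genes tested), further machinery (19 of 20 tested) and further receptors (15 of 16 tested). In KO NO against WT NO none was called, and at an unadjusted p under 0.05, 3 regulators, 3 machinery genes and 1 receptor were higher and 0, 0 and 1 were lower (5.81% and 6.37% of all genes). The median log2 fold changes were 0.04, 0.15 and 0.12, against -0.02 for all genes. Atg9b, a paralogue of the lipid scramblase gene Atg9a, stood at 1.23, 2.19 and 1.93 CPM in KO NO and at 0.106, 0.296 and 0.275 in WT NO. The groups did not overlap, but the gene had fewer than 10 counts in every WT library, so the size of its log2 fold change (2.96, SE 0.86, adjusted p = 0.148) is uncertain. Phb2, a mitochondrial inner membrane receptor of mitophagy, was at 292, 262 and 294 CPM against 533, 527 and 464, also without overlap (-0.85, SE 0.27, adjusted p = 0.204). Trib3, a pseudokinase gene induced by ATF4, stood at 27.1, 20.3 and 28.6 CPM against 9.47, 7.87 and 16.5, again apart (1.16, SE 0.40, adjusted p = 0.236). Flcn, folliculin, which acts in nutrient sensing at the lysosome and restrains TFEB and TFE3, stood at 44.2, 40.4 and 41.3 CPM in KO NO and 25.3, 22.1 and 22.2 in WT NO, without overlap (0.85, SE 0.31, adjusted p = 0.268). The other genes of this kind were the AMPK subunit Prkab2 (1.07, SE 0.41, adjusted p = 0.305), the ER-phagy receptor Atl3 (0.53, SE 0.19, adjusted p = 0.259), the PI3P-binding Wdr45 (0.68, SE 0.30, adjusted p = 0.401) and the SNARE gene Vamp8, described with RA below.

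When KO RA replicate 3 was left out, 4 regulators, 4 machinery genes and 1 receptor were called higher in KO NO and 0, 0 and 1 lower (4.43% and 4.35% of all genes). The regulators were Flcn (0.86, adjusted p = 0.00201), the transcription factor gene Foxo3 (0.89, adjusted p = 0.0144), Sesn2, an inhibitor of mTORC1 signalling (0.80, adjusted p = 0.0235), and Deptor, an inhibitor of mTOR (0.73, adjusted p = 0.0317). The machinery genes were Atg9b (2.96, adjusted p = 0.0295), Wdr45 (0.69, adjusted p = 0.0365), Vamp8 (1.74, adjusted p = 0.0464) and Vps33a, of the tethering complex HOPS (0.49, adjusted p = 0.0478). The receptors were Atl3 (0.54, adjusted p = 0.023) and, lower, Phb2 (-0.84, adjusted p = 0.00134). With all libraries the adjusted p-values of Foxo3, Sesn2, Deptor and Vps33a were 0.591, 0.481, 0.566 and 0.616.

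In KO RA against WT RA, 1 of these genes was called. Vamp8, the lysosomal SNARE that pairs with STX17 at fusion, stood at 10.8, 11.1 and 65.2 CPM in KO RA and at 2.12, 1.45 and 0.908 in WT RA, without overlap. Its log2 fold change was 4.27 (SE 0.82, adjusted p = 0.0373), and 2.87 (adjusted p = 0.0116) without KO RA replicate 3. The call was lost, at adjusted p-values of 0.0586 to 0.179, when WT NO replicate 1, any WT RA library or any KO NO library was left out. In KO NO it stood at 12.7, 13.3 and 10.2 CPM and in WT NO at 2.57, 1.4 and 6.81, again without overlap (log2 fold change 1.74, SE 0.73, adjusted p = 0.357).

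At an unadjusted p under 0.05, 1 regulator, 2 machinery genes and 1 receptor were higher in KO RA than in WT RA and 4, 0 and 3 were lower (10.9% and 6.67% of all genes), with medians of -0.15, 0.14 and -0.10 against 0.09. The lower regulators were Castor1, an arginine sensor of mTORC1 (-1.34, SE 0.35, adjusted p = 0.0931), the mTOR complex subunit Mlst8 (-0.88, SE 0.29, adjusted p = 0.176), Tfeb, the transcription factor of lysosomal genes (-1.02, SE 0.43, adjusted p = 0.254), and Zkscan3, a repressor of autophagy genes (-0.45, SE 0.20, adjusted p = 0.277). Tfeb was low, at 1.99, 1.26 and 1.09 CPM in KO RA and 2.16, 4.46 and 2.25 in WT RA. Its log2 fold change ranged from -1.28 to -0.60 when any library was left out. The higher regulator was Rheb, the GTPase that activates mTORC1 (0.88, SE 0.38, adjusted p = 0.265), at 0.11 without KO RA replicate 3. Besides Vamp8, Atg9b was higher (3.84, SE 0.96, adjusted p = 0.0789), with fewer than 10 counts in every WT library and in KO RA replicate 3. Among receptors, Phb2 (-0.90, SE 0.27, adjusted p = 0.139), the mitophagy receptor Bcl2l13 (-0.73, SE 0.24, adjusted p = 0.168) and the ER-phagy adaptor Cdk5rap3 (-0.58, SE 0.23, adjusted p = 0.229) were lower, and the ER-phagy receptor Sec62 was higher (0.80, SE 0.28, adjusted p = 0.196). Sec62 stood at 35.3, 35.9 and 75.2 CPM in KO RA and at 23.7, 29.8 and 30.6 in WT RA. Its log2 fold change ranged from 0.34 to 1.05 when any library was left out. With KO RA replicate 3 left out, 0 regulators, 2 machinery genes and 0 receptors were called higher and 1, 1 and 2 lower (4.42% and 5.44% of all genes). Beside Vamp8 these were Atg9b (4.27, adjusted p = 0.0136) and, lower, Castor1 (-1.07, adjusted p = 0.0413), the HOPS subunit Vps41 (-0.77, adjusted p = 0.0254, and -0.39 with adjusted p = 0.484 in all libraries), Phb2 (-0.64, adjusted p = 0.00855) and Bcl2l13 (-0.51, adjusted p = 0.035).

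In WT RA against WT NO none of these genes was called by edgeR, and at an unadjusted p under 0.05, 5 regulators, 1 machinery gene and 0 receptors were higher and none was lower (6.76% and 5.79% of all genes). The medians were 0.13, -0.04 and 0.19 against -0.01. Ddit3, the stress transcription factor CHOP, stood at 10.3, 32.8 and 13.7 CPM in WT RA and 4.9, 7.65 and 8.94 in WT NO, apart but with a wide spread (1.40, SE 0.49, adjusted p = 0.253). Zkscan3 was at 14.4, 16.5 and 15.0 CPM against 9.33, 10.5 and 11.0, without overlap (0.57, SE 0.20, adjusted p = 0.256). Flcn was at 40.5, 44.5 and 38.5 CPM against 25.3, 22.1 and 22.2, also apart (0.83, SE 0.31, adjusted p = 0.29). Further genes were Tfeb (1.12, SE 0.42, adjusted p = 0.302), the mTORC1 inhibitor gene Ddit4 (1.69, SE 0.74, adjusted p = 0.377) and Vps41 (0.67, SE 0.28, adjusted p = 0.34). Tfeb was low here too, at 2.16, 4.46 and 2.25 CPM in WT RA and 1.48, 1.63 and 0.977 in WT NO. In the fit that omitted KO RA replicate 3, 3 regulators and 1 machinery gene were called higher and 1 receptor lower (5.65% and 5.13% of all genes). They were Flcn (0.83, adjusted p = 0.00308), Zkscan3 (0.58, adjusted p = 0.032), Ddit4 (1.69, adjusted p = 0.0477), Vps41 (0.68, adjusted p = 0.0246) and Phb2 (-0.46, adjusted p = 0.0187, and 0.544 in all libraries).

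In KO RA against KO NO, the kinase gene Mtor, a repressor of autophagy initiation, was called lower. Its levels were 25.5, 21.6 and 24.4 CPM in KO RA and 50.6, 41.2 and 41.9 in KO NO, with a log2 fold change of -0.90 (SE 0.18, adjusted p = 0.019) and no overlap. That call was lost, at adjusted p-values of 0.0659 to 0.107, without any of KO NO replicates 1, 2 and 3. At an unadjusted p under 0.05, 1 gene of each list was higher, and 3 regulators, 0 machinery genes and 1 receptor were lower (15.8% and 9.42% of all genes), with medians of -0.33, -0.13 and -0.10 against 0.11. The other lower genes were Deptor (-1.41, SE 0.43, adjusted p = 0.0823, and 0.0276 without KO RA replicate 2), Castor1 (-0.93, SE 0.35, adjusted p = 0.139) and Atl3 (-0.68, SE 0.19, adjusted p = 0.0614, and 0.0454 without WT NO replicate 3). The higher ones were Ddit3 (1.23, SE 0.48, adjusted p = 0.15), Snap29, a SNARE partner of STX17 (0.61, SE 0.24, adjusted p = 0.148), and Stbd1, a receptor for glycogen (1.50, SE 0.45, adjusted p = 0.0775). Ddit3 stood at 28.4, 17.7 and 50.4 CPM in KO RA and at 17.8, 10.6 and 12.5 in KO NO, where the groups overlapped. Stbd1 stood at 3.7, 3.07 and 7.93 CPM against 1.67, 1.78 and 1.7. With any library left out the values ranged from 0.74 to 1.58 for Ddit3 and from 0.97 to 1.81 for Stbd1. Once KO RA replicate 3 was left out, 1 regulator was called higher and 2 regulators, 1 machinery gene and 2 receptors lower (8.48% and 7.54% of all genes). These were Foxk1, a repressor of autophagy genes (1.37, adjusted p = 0.00865, and 0.90 with adjusted p = 0.32 in all libraries), then Mtor (-0.93, adjusted p = 0.00337), Deptor (-1.01, adjusted p = 0.00901), Wdr45 (adjusted p = 0.0086, and -0.54 with 0.285 in all libraries), Atl3 (-0.58, adjusted p = 0.0182) and the ferritin receptor Ncoa4 (-0.69, adjusted p = 0.017, and 0.431 in all libraries).

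For the interaction 0 regulators, 1 machinery gene and 0 receptors were higher at an unadjusted p under 0.05 and 5, 0 and 1 were lower (5.53% and 3.09% of all genes), and none was called. The medians were -0.39, -0.03 and -0.16 against 0.12. Atl3 stood at 12.5, 11.3 and 11.0 CPM in WT NO, 13.7, 12.7 and 13.4 in WT RA, 18.1, 15.3 and 16.9 in KO NO, and 11.7, 10.9 and 8.62 in KO RA, so that it lay above WT NO with RA in WT and below KO NO with RA in KO (difference -0.87, SE 0.27, adjusted p = 0.417). Flcn with RA stood at 34.3, 39.6 and 14.1 CPM in KO, and the difference of its RA responses was -1.34 (SE 0.43, adjusted p = 0.43). Mtor in WT was at 37.2, 37.2 and 29.9 CPM without RA and at 30.0, 27.4 and 30.2 with RA, where the groups overlapped, and its difference was -0.65 (SE 0.26, adjusted p = 0.522). The others were Tfeb (-1.50, SE 0.60, adjusted p = 0.523), Deptor (-1.48, SE 0.60, adjusted p = 0.529), Castor1 (-1.15, SE 0.49, adjusted p = 0.553) and Vamp8 (2.53, SE 1.04, adjusted p = 0.54). Without KO RA replicate 3 Flcn was called (-1.03, adjusted p = 0.0262), as 1 of 29 regulators, against 0.537% of all genes.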

How the data were processed

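The authors extracted RNA from frozen pellets of cells, prepared mRNA libraries and sequenced both ends of fragments, and ran the default nf-core/rnaseq workflow (STAR and Salmon) on GRCm39 with Ensembl release 109 annotation. The deposited table holds estimated counts of 57010 genes in 12 libraries, not normalized between libraries, of which 27569 genes were at 0 throughout. In 3851 genes above 0 in 1 library, values fell with exonic length (Spearman correlation -0.685), as counts corrected for length would. Strand use in the counting is not given in the sources used here. Of the 48 genes, 19 overlap a protein-coding gene on either strand and 1 on the same strand, so reads shared there are uncertain.

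Rounded counts were passed to edgeR 4.0.16 (R 4.3.3). The filter was filterByExpr with a minimum count of 10, and libraries were scaled with TMM factors and fitted with 1 coefficient per group over all 12 libraries by quasi-likelihood (common dispersion 0.215). Calls required a p under 0.05 after Benjamini-Hochberg adjustment over all 16502 genes. Groups were called apart where all 3 libraries of a group lay above all 3 of the other. A floor of 3 counts stood at 0.0838 to 0.297 CPM, below every level of the 48 genes in its own library. Standard errors came from the fold change and the F statistic. DESeq2 1.42.0 and limma 3.58.1 (voom with sample quality weights) served as alternatives, beside 2 other filters, DESeq2's size factors, fits on the groups compared, a replicate block and each library left out in turn.

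Fold changes with their tests are given for members with an unadjusted p under 0.05, at most 12 a comparison, or called without KO RA replicate 3, and levels in every library for called members and for the 3 with the smallest p elsewhere. The rule for the 3 further lists is the same, with at most 5 genes a list and comparison and with levels over the lists together. Other levels were added for context after values were seen. The members and lists were chosen with earlier results of these data known. Promoter windows came from RefSeq and gene positions from GENCODE's GRCm39 annotation, read with Python 3.11.15.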

Additional observations from a re-analysis of the deposited data

How the results depend on the processing

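In KO NO against WT NO, genes called higher of the 48 numbered 2 with DESeq2 on all libraries, 1 with edgeR on the groups compared, 5 with DESeq2 on the groups compared (added after the values were seen) and 17 with limma-voom, and 0 were lower in each. Faf2 passed with log2 fold changes of -0.87 (adjusted p = 0.016), -0.86 (0.0359), -0.86 (0.00043) and -0.94 (0.00121) in the same order. In KO RA against WT RA the 1 call became 2 with DESeq2 on all libraries and 3 higher and 1 lower with limma-voom, and 0 with no filter beyond 1 count (Tex264 adjusted p = 0.111) and with only the groups compared (0.225). In WT RA against WT NO there were 1 higher and 1 lower with DESeq2 on all libraries, 3 higher with edgeR on the groups, 3 higher and 1 lower with DESeq2 on the groups, and 13 higher and 1 lower with limma-voom. KO RA against KO NO gave 3 higher and 4 lower with DESeq2 on all libraries, 1 higher with DESeq2's size factors in edgeR, and 4 higher and 13 lower with limma-voom. For the interaction limma-voom called 1 lower and gave a median of -0.29. The cause of these differences was not tested. Shares of all genes are given only for edgeR on all libraries and without KO RA replicate 3. Counts from the other fits therefore cannot be set against all genes. Leaving out 1 library gave 0 to 6 higher and 0 lower (KO NO against WT NO), 0 to 2 and 0 (KO RA against WT RA), 0 to 3 and 0 to 1 (WT RA against WT NO), 0 to 3 and 0 to 8 (KO RA against KO NO), and 0 and 0 (interaction). The 6, the 2, the 3 and the 1 in WT RA, and the 8 came without KO RA replicate 3, and in KO RA against KO NO the 3 higher without KO RA replicate 1. Medians ranged in the same order from 0.22 to 0.33, -0.09 to 0.04, -0.02 to 0.18, -0.24 to -0.11 and -0.27 to -0.05, and Faf2 from -0.96 to -0.72. The replicate numbers gave no sign of pairing. Correlations of deviations between same-numbered libraries ran from -0.167 to 0.038, and those between different numbers from -0.0748 to 0.144. With 3 libraries a group, they do not settle whether same-numbered libraries shared a passage. With the replicate block Tex264 in KO RA against WT RA was no longer called (adjusted p = 0.0949), which left 0, and the other counts stayed at 0.

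The 85 named gene and comparison pairs had 1668 values under the alternatives, of which 1460 kept direction and call, 176 gained and 25 lost a call, and 7 in 3 pairs turned direction, all in KO RA against KO NO. They were Atg101 at 0.15 without KO RA replicate 1 and 0.15 without replicate 2, Vmp1 at -0.71 without replicate 3 and -0.65 with limma-voom, and Gabarapl2 at 0.02 without KO NO replicate 1 and at 0.07 and 0.01 without KO RA replicates 1 and 2. Over the fits that left out 1 library they ranged from -0.79 to 0.15, -0.71 to 1.77 and -0.75 to 0.07. None of these 3 was called with all libraries in edgeR. With 3 libraries a group and 1 line per genotype, a gene that missed the threshold is not shown to be the same in both groups. The lowest genes in WT NO, Atg10 and Retreg1, rest on few counts.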
